A study of Homo sapiens with 36 samples.

Results

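The 10 genes described here encode the core of the human microRNA pathway: DROSHA and DGCR8, DICER1, the Argonaute genes AGO1, AGO2, AGO3 and AGO4, and the GW182 scaffold genes TNRC6A, TNRC6B and TNRC6C. They were chosen by name, and a PAR-CLIP cluster was assigned to one of them if its midpoint lay within the gene body of GENCODE release 44 on GRCh38, on the strand of the gene. These genes held 780 of the 278185 clusters in 18 lists, and 9830 protein-coding genes held a cluster in any list. PAR-CLIP (photoactivatable ribonucleoside-enhanced crosslinking and immunoprecipitation) maps where a protein touches RNA, because the nucleoside 4-thiouridine (4SU) is built into new RNA, crosslinks to bound protein under long-wave UV light, and leaves T-to-C changes in the reads. Cells were HEK293 Flp-in T-Rex, an established human embryonic kidney line with a single site for inserting a transgene. The SCAF4 and SCAF8 groups carried a doxycycline-inducible FLAG-SCAF4 or FLAG-SCAF8 and were induced overnight (100 ng/mL in the labels), and the control was the parental line, in which no tagged protein was expressed. The labels name doxycycline for the FLAG lines alone, whereas the study's methods give it to the parental line too. All lines had unedited SCAF4 and SCAF8 genes, so tagged protein was present in addition to the cell's own. All were given 100 μM 4SU overnight and a 500 μM pulse for 2 h before irradiation with 2000 J/m2 at 365 nm. Each line gave 3 FLAG immunoprecipitations (IPs) and 3 inputs, the latter being RNA of the same extract set aside before the IP. Each FLAG line was 1 clonal line, so the replicates are samples of that line and p-values measure the spread between them.

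MicroRNAs are made in 2 cuts. In the nucleus DROSHA, a ribonuclease III, and its RNA-binding partner DGCR8 release a hairpin from a long primary transcript, and in the cytoplasm DICER1 removes the loop. An Argonaute protein holds 1 strand of the product and finds target mRNAs by base pairing, and a TNRC6 scaffold bound to Argonaute recruits the deadenylases that shorten the target's tail. SCAF4 and SCAF8 are nuclear proteins that bind both RNA and the C-terminal domain of RNA polymerase II, so these clusters mark contacts on the transcripts of the pathway genes, and say nothing of the proteins these genes encode.

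The lists held 18991, 54404 and 33962 clusters for SCAF4 IP replicates 1 to 3, and 25189, 18287 and 41502 for SCAF8 IP. Control IP lists were shorter, with 9638, 2314 and 1621 clusters, and the 9 input lists held 4567 to 12493. Reads are not part of the lists, so depth is unknown and only the length of a list shows how much it holds. Cluster numbers are therefore given as found and as clusters per 10000 clusters of the list. A gene with few clusters is easily at 0 in a short list, and the 2 shortest lists were both control IPs. Replicate 1 was sequenced with longer reads than replicates 2 and 3. The amount of each transcript in the cells was not measured in these lists.

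Summed over the pathway, IP and input were close. The 10 genes together held 27.2 ± 2.79 clusters per 10000 in SCAF4 IP (SD, n = 3), 32.1 ± 0.239 in SCAF8 IP and 25.1 ± 7.96 in control IP. In the inputs they held 23.4 ± 0.476 for SCAF4, 28.1 ± 1.87 for SCAF8 and 24.8 ± 0.752 for the control. Pooled over lists, the share of clusters in these genes was 1.10 times as high in the SCAF4 and SCAF8 IPs as in their inputs (95% interval 0.910 to 1.34, from the exact binomial interval of the cluster numbers, covering counting error only). The members differed strongly in how many clusters they held. DGCR8 had 304 in the 18 lists, AGO2 129, TNRC6A 104, DROSHA 79, DICER1 72, AGO3 29, TNRC6B 23, AGO1 21, TNRC6C 15 and AGO4 4. DGCR8 is the shortest of these genes, with 31657 nt against 49875 to 290992 nt for the others.

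**Figure D1:**
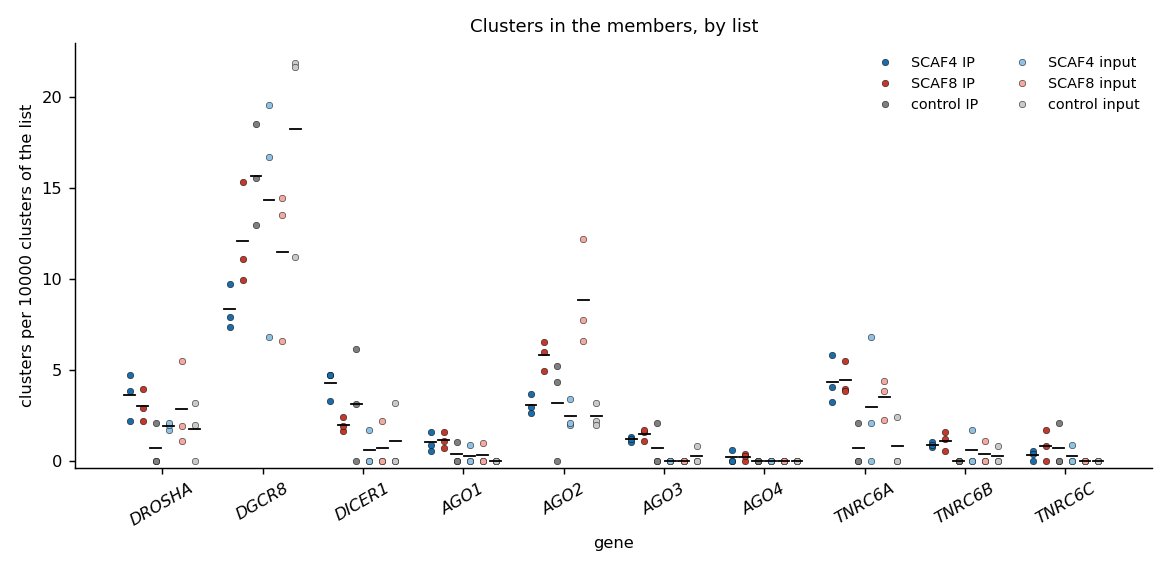
Clusters of each gene per 10000 clusters of the list (linear vertical axis), 1 point for each of the 18 lists, coloured by group, with the group mean as a black bar. DGCR8 lies highest in every group, the 3 SCAF8 inputs lie above all other inputs for AGO2, and the AGO3 clusters of the 6 SCAF4 and SCAF8 IPs all lie above their inputs, which are at 0.

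The Microprocessor genes were read in nearly all IPs. DROSHA had 9, 12 and 13 clusters in SCAF4 IP replicates 1 to 3, and 10, 4 and 12 in SCAF8 IP. Its inputs had 2, 1 and 1 for SCAF4, 5, 2 and 1 for SCAF8 and 4, 0 and 1 for the control, and control IP had 2, 0 and 0. Per 10000, the SCAF IP lists held 2.19 to 4.74 DROSHA clusters and overlapped their inputs (1.11 to 5.47), whereas all 6 lay above the control IP lists. DROSHA clusters formed 22 regions when overlapping clusters of all lists were merged. The most widely found region lay in exon 3, part of the 5′ UTR, with clusters in all 6 IPs, 1 control IP and 7 of 9 inputs. A further 13 DROSHA regions were in IP lists and no input or control IP list, which the longer IP lists favour at any gene. Of these, 1 region in exon 10 and 1 in exon 20 had clusters in 5 of 6 IPs, all 3 of SCAF4 among them, and both exons are coding. The 30 nt covered by clusters of the most lists are printed on the strand of the transcript (minus strand, GRCh38), with 3 kinds of short motif in capitals: CGG or CGA; CAG flanked on each side by a C or a G; and CTCC or CACC. The study named these motifs for its clusters as a whole. The exon 20 stretch holds none of them.
DROSHA exon 10, chr5:31508651-31508680: cgcaaaaaggccCACCctgacCGActtcat
DROSHA exon 20, chr5:31464258-31464287: gctaagtagccaaggattctggaaaactgg

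DGCR8 was marked in IP and input alike. It had 14, 43 and 33 clusters in SCAF4 IP, 25, 28 and 46 in SCAF8 IP and 15, 3 and 3 in control IP. The inputs had 8, 10 and 8 for SCAF4, 6, 14 and 13 for SCAF8 and 14, 10 and 11 for the control. Per 10000 clusters this was 8.33 ± 1.23 in SCAF4 IP, 12.1 ± 2.84 in SCAF8 IP, 15.7 ± 2.77 in control IP and 11.5 ± 4.30 to 18.3 ± 6.10 in the inputs (SD, n = 3 each), and the SCAF IP lists overlapped both their inputs and control IP. Its 51 merged regions included the most widely found region of all 10 genes, over exon 2 (chr22:20085600-20086714, plus strand), with clusters in 17 of 18 lists. Exon 3 and the 3′ UTR each had a region found in 16 lists. So did a region that covered all of exon 8, with its midpoint in intron 7.

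The exon 2 region is of interest because 2 microRNA hairpins are encoded in the DGCR8 transcript there, and because the Microprocessor is known to cut hairpins in the DGCR8 mRNA. MIR3618 lies in the 5′ UTR part of exon 2 and MIR1306 in its coding part. RefSeq (GRCh38.p14) gives the 3 mature sequences, in which the seed (bases 2 to 8, the part that pairs first with targets) is in capitals. The 3 seeds differ.
hsa-miR-3618, chr22:20085797-20085818: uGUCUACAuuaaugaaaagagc
hsa-miR-1306-5p, chr22:20086072-20086093: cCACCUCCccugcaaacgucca
hsa-miR-1306-3p, chr22:20086112-20086129: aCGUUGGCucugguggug
Clusters overlapped both mature miR-1306 sequences in all 6 SCAF IPs and in 1 control IP. Of the 9 inputs, 2 had a cluster over miR-1306-5p and 3 over miR-1306-3p. The mature miR-3618 was overlapped in 2 SCAF4 IPs, 2 SCAF8 IPs, 1 control IP and 1 input. The IP lists are longer than the input lists, so a cluster is more likely to be found in them, and the count of lists was not tested. DICER1 also hosts a hairpin, MIR3173 in intron 3, and no list held a cluster over it.

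**Figure D2:**
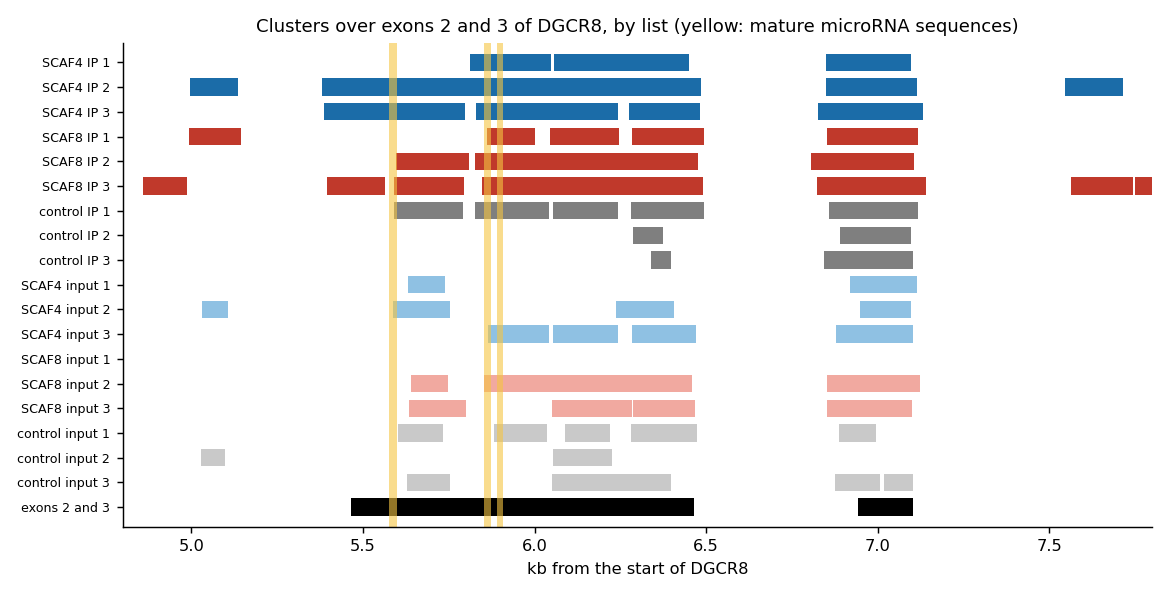
Clusters of each of the 18 lists (rows, coloured by group) over exons 2 and 3 of DGCR8 (black), in kb from the start of the gene, with the mature miR-3618, miR-1306-5p and miR-1306-3p in yellow. Exon 2 carried clusters in 17 of 18 lists, and the 2 miR-1306 sequences were covered in all 6 SCAF4 and SCAF8 IPs.

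DICER1 was the member with the largest difference between IP and input. SCAF4 IP had 9, 18 and 16 clusters and SCAF8 IP 6, 3 and 8, against 2, 0 and 0 in SCAF4 input, 2, 0 and 0 in SCAF8 input and 4, 0 and 0 in control input. Control IP had 3, 0 and 1. Per 10000 clusters, DICER1 stood at 4.25 ± 0.818 in SCAF4 IP, 1.98 ± 0.374 in SCAF8 IP, 0.569 ± 0.986 in SCAF4 input, 0.729 ± 1.26 in SCAF8 input and 3.09 ± 3.08 in control IP (SD, n = 3 each). The 3 SCAF4 IP lists lay above the 3 SCAF8 IP lists, a comparison chosen after the values were seen, and the control IP lists, with 4 DICER1 clusters among 13573, spanned both. Pooled over the SCAF IPs, 60 DICER1 clusters stood against 4 in their inputs, a ratio of 3.91 after scaling to the clusters of the lists (95% interval 1.45 to 14.8). Most DICER1 clusters were exonic, with 36 of 43 in SCAF4 IP and 12 of 17 in SCAF8 IP. Of 15 merged exonic regions, 7 had clusters of both proteins, 8 had clusters of SCAF4 IP but not SCAF8 IP, and 0 the reverse. Over all protein-coding genes the shares were 50.4%, 39.0% and 10.6% of 28199 exonic regions, and the SCAF4 IP lists are also longer, with 107357 clusters against 84978. The most widely found region with no input or control IP cluster was in exon 6, in 5 of 6 IPs. Its central 30 nt, shown for that reason (minus strand, GRCh38), hold none of the motif letters above.
DICER1 exon 6, chr14:95132551-95132580: tgtcctatcagatcaggggagacttcagca

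The Argonaute genes fell into different patterns. AGO1, AGO3 and AGO4 lie side by side on chromosome 1, with 185 nt between AGO1 and AGO3, and they held few clusters. AGO2 lies on another chromosome, and its sequence is not shown. AGO3 had 2, 7 and 4 clusters in SCAF4 IP and 4, 2 and 7 in SCAF8 IP, and its 6 SCAF inputs had none. The control line had 2, 0 and 0 in IP and 1, 0 and 0 in input. The SCAF IP lists thus lay apart from their inputs for AGO3 (1.05 to 1.69 per 10000 against 0), and the share was at least 2.26-fold higher when the inputs were set to a floor of 3 clusters over the group. The control IP lists, at 0 to 2.08 per 10000, spanned the AGO3 range of the SCAF IPs. AGO1 had 3, 3 and 3 clusters in SCAF4 IP and 4, 2 and 3 in SCAF8 IP, against 1 cluster each in SCAF4 input, SCAF8 input and control IP, and 0 in control input. Its pooled ratio of IP to input was 2.35 (0.562 to 20.8). AGO4 had 4 clusters in all, 2 of SCAF4 IP replicate 3 and 1 each of SCAF8 IP replicates 1 and 3, which is too few for a ratio.

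AGO2, the Argonaute that can cut a target RNA, had 5, 20 and 10 clusters in SCAF4 IP and 15, 9 and 27 in SCAF8 IP. Control IP had 5, 1 and 0, SCAF4 input 4, 1 and 1, SCAF8 input 6, 8 and 11, and control input 4, 1 and 1. SCAF8 cells were high in both kinds of list. SCAF8 IP held 5.79 ± 0.804 AGO2 clusters per 10000 and SCAF8 input 8.83 ± 2.98, whereas SCAF4 IP held 3.08 ± 0.536, SCAF4 input 2.49 ± 0.807 and control input 2.45 ± 0.658 (SD, n = 3 each). Neither the IPs nor the inputs of the 2 FLAG lines overlapped for AGO2, which was seen in the values and then counted. The pooled ratio of SCAF8 input to SCAF4 input was 3.16 (1.27 to 9.42), and that of SCAF4 IP to SCAF8 IP was 0.543 (0.343 to 0.852). The difference between the IPs of the 2 proteins at AGO2 therefore went with a difference in the same direction between the inputs, before any IP.

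The GW182 scaffold genes were marked mainly through TNRC6A. It had 11, 22 and 11 clusters in SCAF4 IP and 10, 10 and 16 in SCAF8 IP. The inputs had 8, 0 and 1 for SCAF4, 4, 4 and 2 for SCAF8 and 3, 0 and 0 for the control, and control IP had 2, 0 and 0. Per 10000 clusters, TNRC6A held 4.36 ± 1.31 in SCAF4 IP, 4.43 ± 0.900 in SCAF8 IP and 0.692 ± 1.20 in control IP (SD, n = 3 each), and the SCAF IP lists lay above all control IP lists but overlapped the inputs (0 to 6.83). TNRC6B had 2, 4 and 3 clusters in SCAF4 IP and 4, 1 and 5 in SCAF8 IP, 0 in control IP, and 2, 1 and 1 in the first replicate of SCAF4, SCAF8 and control input, with 0 in the other inputs. TNRC6C had 1, 2 and 0 clusters in SCAF4 IP, 2, 0 and 7 in SCAF8 IP, 2 in control IP replicate 1, 1 in SCAF4 input replicate 1 and 0 elsewhere. Thus 7 of its 9 SCAF8 IP clusters came from 1 list. The TNRC6 regions found in 5 of 6 IPs, in no control IP and in at most 1 input are shown on their transcript strand (plus, GRCh38) with the same motifs in capitals. Those of TNRC6A lie in coding exons, the last exon included, and that of TNRC6B in intron 1. The last exon of TNRC6A carries CGG at 2 places and CCAGC within 30 nt, but neither CTCC nor CACC, and the TNRC6B intron none of the motifs.
TNRC6A exon 18, chr16:24809399-24809428: gccacagtcaagactaaggaagtggaCGAc
TNRC6A exon 25, chr16:24823528-24823557: CGGctggcagtctctCGGgtCCAGCcagag
TNRC6B intron 1, chr22:40178309-40178338: tagaaatggaaaagacgtggtaaaatattt

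**Figure D3:**
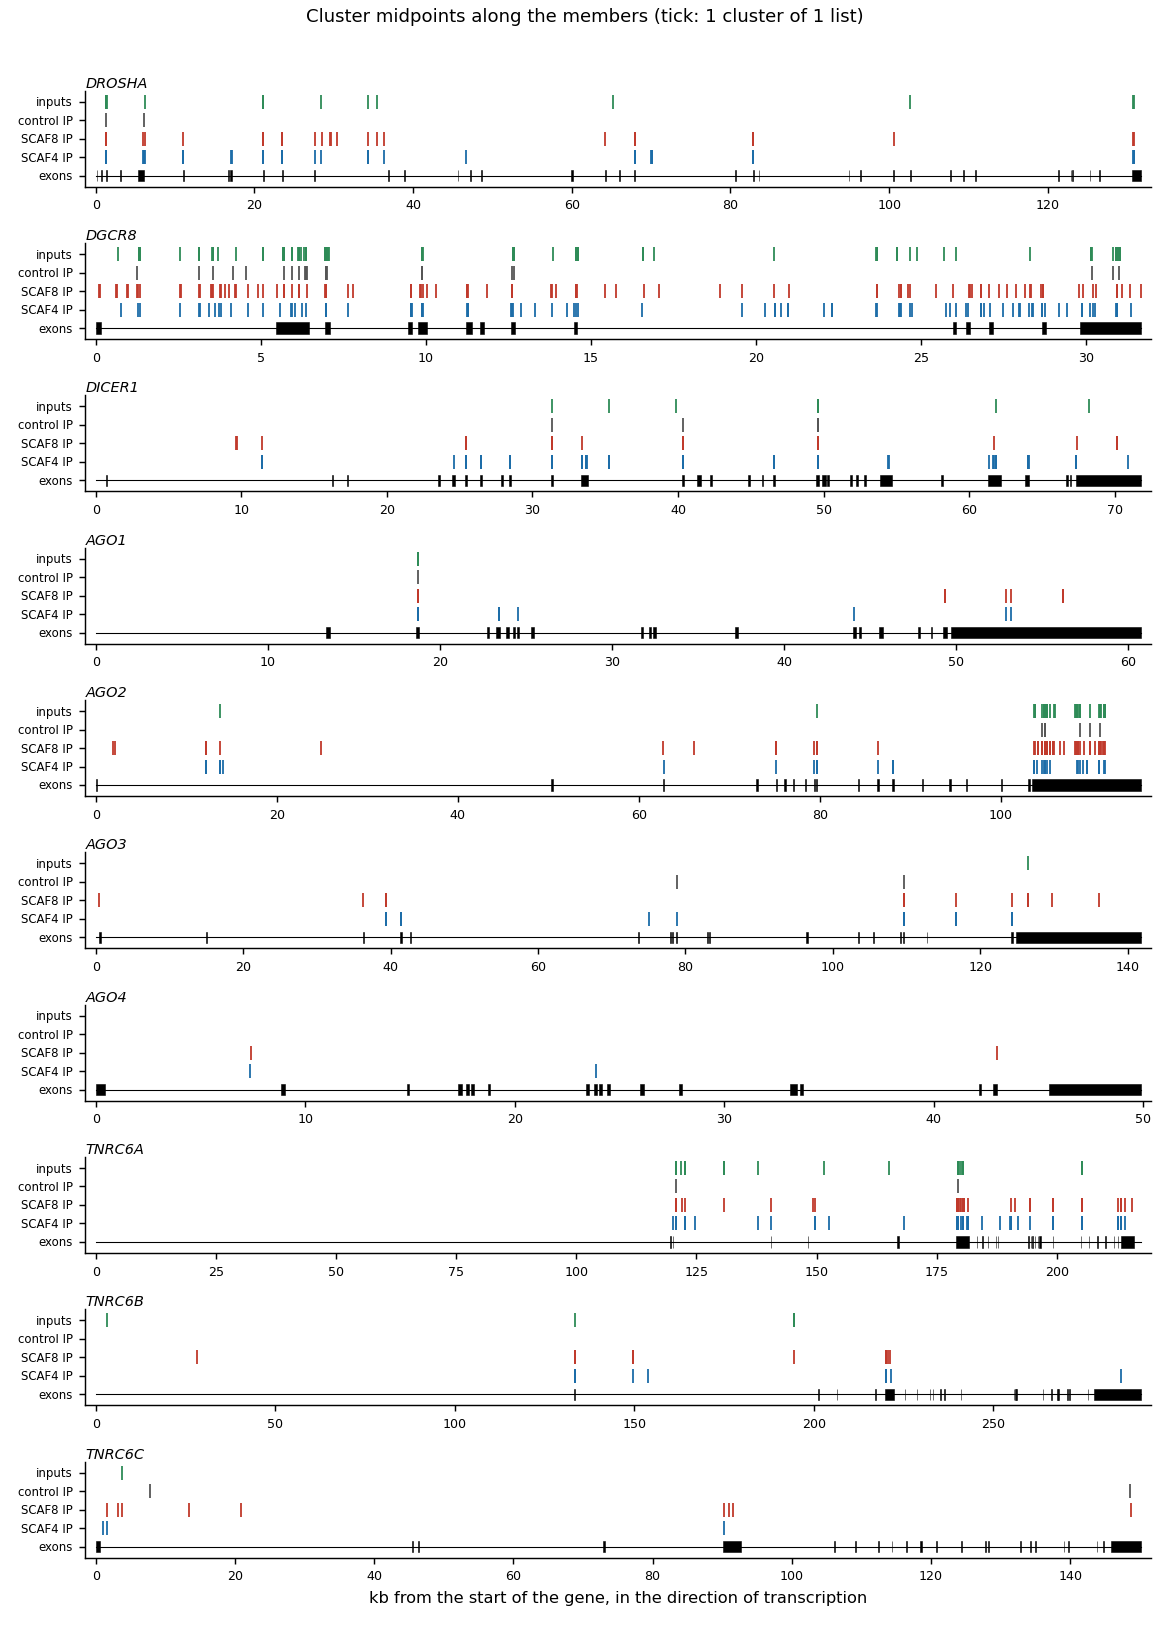
Midpoints of clusters along each of the 10 genes, in kb from the gene start in the direction of transcription, with 1 tick for each cluster of SCAF4 IP, SCAF8 IP, control IP and all 9 inputs, above the exons of the isoform used. Ticks of AGO2 inputs crowd in the 3′ UTR, those of DGCR8 run along the whole gene in IP and input, and IP ticks of DICER1 fall on many exons that have none from the inputs.

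To compare IP with input across genes, limma was fitted to log2(clusters per 10000 + 1) of 7676 protein-coding genes with a cluster in at least 3 lists, which all 10 members passed. AGO3, AGO4 and TNRC6C passed only through the SCAF IPs, with 2, 0 and 2 other lists that held a cluster, so the filter favoured positive differences in them. In the SCAF4 and SCAF8 IPs against their inputs, 2 members were higher and 0 lower at an adjusted p below 0.05, against 24.3% higher and 2.31% lower of all genes tested. DICER1 rose by a log2 difference of 1.46 ± 0.48 (SE, adjusted p = 0.0295). AGO3 differed by 1.20 ± 0.28 (adjusted p = 0.00433), a call that the filter favoured. The median difference of the 10 genes, those 3 included, was 0.49, and that of all genes tested 0.26. Input lists were shorter than IP lists, and low genes are at 0 in many of them. Their part in this median was not tested. The DICER1 call rested on single lists: over 25 other settings its adjusted p ranged from 0.000466 to 0.286, and it stayed under the threshold in 14, and in 5 of the 15 that left out samples. It was lost without replicate 2 or 3 of all groups, without replicate 1 or 3 of SCAF4 IP or of SCAF8 IP, and without replicate 2 or 3 of SCAF4 input or of SCAF8 input. AGO3 was called in 23 of 25 settings (adjusted p 0.000132 to 0.0974), and it was lost without replicate 2 or without replicate 3.

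The other members did not pass this test. AGO1 had a difference of 0.71 ± 0.27 (adjusted p = 0.0579, limma), which fell to 0.0434 with the replicate number as a block, within a range of 0.000214 to 0.647 over its 25 settings. TNRC6A (0.58 ± 0.46), TNRC6B (0.56 ± 0.29), DROSHA (0.41 ± 0.41), TNRC6C (0.41 ± 0.28) and AGO4 (0.24 ± 0.10) were positive, and AGO2 (−0.13 ± 0.39) and DGCR8 (−0.25 ± 0.28) negative, each as a log2 difference with its SE and an adjusted p of 0.0736 to 0.842. The negative values of AGO2 and DGCR8 depend on the scaling, since the raw cluster numbers of both were higher in the longer IP lists. Pooled ratios of IP to input were 1.30 (0.694 to 2.66) for DROSHA, 0.835 (0.620 to 1.14) for DGCR8, 0.723 (0.475 to 1.13) for AGO2, 1.10 (0.659 to 1.92) for TNRC6A and 1.65 (0.486 to 8.71) for TNRC6B, all with intervals that include 1. Without replicate 1, the batch of longer reads, DGCR8 fell by 0.53 in limma (adjusted p = 0.0323). In the same fit TNRC6B rose by 0.87 (adjusted p = 0.00106, range over settings 0.00106 to 0.850) and AGO1 by 0.61 (adjusted p = 0.0460). Over its settings the adjusted p of DGCR8 ran from 0.00291 to 0.901, and the lowest came without scaling, where DGCR8 was higher in IP.

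**Figure D4:**
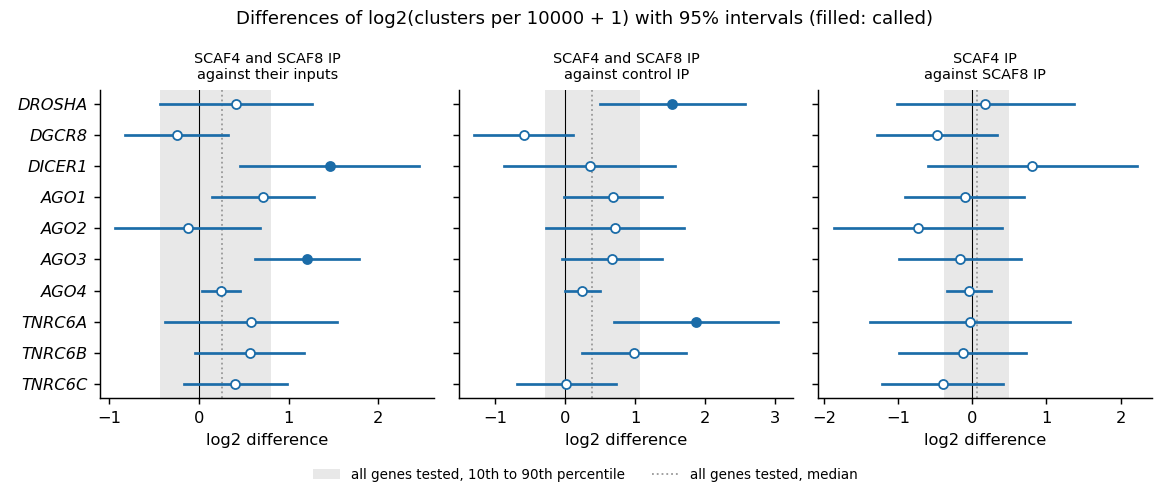
Log2 differences of clusters per 10000 (pseudocount 1) with their 95% intervals for the 10 genes, in the SCAF4 and SCAF8 IPs against their inputs, in the same IPs against control IP, and in SCAF4 IP against SCAF8 IP. Filled points passed an adjusted p of 0.05 (DICER1 and AGO3 in the first panel, DROSHA and TNRC6A in the second), and the grey band spans the 10th to 90th percentile of all genes tested, with their median dotted.

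For each protein alone, no member passed. In SCAF4 IP against SCAF4 input, limma called 0 of the 10 genes, 2 of them with an unadjusted p under 0.05, while 15.3% of all genes passed in either direction. DICER1 was nearest in size, with a log2 difference of 1.90 ± 0.68 (adjusted p = 0.0623), followed by AGO3 with 1.12 ± 0.39 (adjusted p = 0.0593). With the replicate block both passed, at adjusted p = 0.0252 for DICER1 and 0.0458 for AGO3, and over 19 settings their adjusted p ran from 0.0018 to 0.362 and from 0.00179 to 0.343. In SCAF8 IP against SCAF8 input, 0 members were called and 1 had an unadjusted p under 0.05, against 3.02% of all genes called. AGO3 had the largest difference there, 1.29 ± 0.39 (adjusted p = 0.0787), and DICER1 had 1.01 ± 0.68 (adjusted p = 0.466). Without replicate 1, DICER1, AGO3 and TNRC6B passed as higher and DGCR8 as lower for SCAF4, and AGO3 and TNRC6B as higher for SCAF8.

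Against the FLAG IP of the parental line, the background of the IP itself, DROSHA (1.53 ± 0.50, adjusted p = 0.0339) and TNRC6A (1.87 ± 0.56, adjusted p = 0.0247) were higher on the log2 scale, 2 of 10 members against 19.6% of all genes tested. Both calls were lost without control IP replicate 2 or without control IP replicate 3, the shortest lists, each with 0 clusters in both genes, and the DROSHA call also without SCAF4 IP replicate 3 or without SCAF8 IP replicate 1 or 3. Over 22 settings the adjusted p ran from 0.000775 to 0.305 for DROSHA and from 0.00098 to 0.241 for TNRC6A. The pooled ratios, 2.12 (0.561 to 17.9) and 2.82 (0.756 to 23.7), had intervals that include 1. TNRC6B, at 0 in control IP, had a difference of 0.98 ± 0.36 (adjusted p = 0.0527), which passed with the replicate block (adjusted p = 0.0252, range over settings 0.00185 to 0.299). DICER1, with 3.09 clusters per 10000 in control IP, differed by 0.35 ± 0.59 (adjusted p = 0.642) and AGO3 by 0.66 ± 0.34 (adjusted p = 0.139), so the members higher than their inputs were not those higher than control IP. Whether the 2 sets of differences differ was not tested, and they share the IP lists. Without replicate 1, which supplied most control IP clusters, AGO1, AGO3 and TNRC6B also passed against control IP. Each had 0 clusters in control IP replicates 2 and 3, where a gene with few clusters is easily at 0. AGO3 had also passed the filter only through the SCAF IPs.

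No member passed the test between SCAF4 IP and SCAF8 IP. Limma called 0 of 10 genes in either direction, with 0 at an unadjusted p under 0.05, against 2.28% of all genes. The largest differences were 0.81 for DICER1, higher in SCAF4 IP (95% interval −0.60 to 2.22), and −0.74 for AGO2, higher in SCAF8 IP (−1.87 to 0.40). These intervals leave room for differences of several fold. The pooled ratio of SCAF4 IP to SCAF8 IP was 2.00 for DICER1 (1.12 to 3.74), where the interval covers counting error and not the spread of lists.

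The shares of member clusters in exons and in 3′ UTRs overlapped between single IP and input lists. In SCAF4 IP 50.4% of their clusters were in 5′ UTR or coding exons, 12.4% in 3′ UTRs and 37.2% in introns. In SCAF8 IP these shares were 39.0%, 21.7% and 38.6%, and in all inputs 34.9%, 28.5% and 36.0%. The input of SCAF4 alone had 43.1%, 19.6% and 35.3%, and that of SCAF8 32.5%, 37.5% and 30%. AGO2 in SCAF8 input supplied 24 of the 53 input clusters in 3′ UTRs. Clusters of all protein-coding genes gave 50.2%, 14.9% and 30.6% in SCAF4 IP, 42.9%, 18.9% and 32.6% in SCAF8 IP and 31.9%, 26.2% and 35.8% in the inputs. The pooled exon and 3′ UTR shares of the members lay in the same order as those of the series. The intron shares did not. They were highest in SCAF8 IP for the members (38.6%, against 36.0% in the inputs) and in the inputs for the series. Single lists varied widely, with exon shares of 43.5% to 58.9% in SCAF4 IP, 34.1% to 49.2% in SCAF8 IP and 18.2% to 63.6% in the inputs. In control IP, 57.5% of the 40 clusters were exonic, but replicate 1 supplied 32 of them. DGCR8 carried much of the intron share. Without it, introns held 27.6% in SCAF4 IP and 27.2% in SCAF8 IP, and 3′ UTRs held 14.6% and 30.1%, against 42.4% in the inputs.

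**Figure D5:**
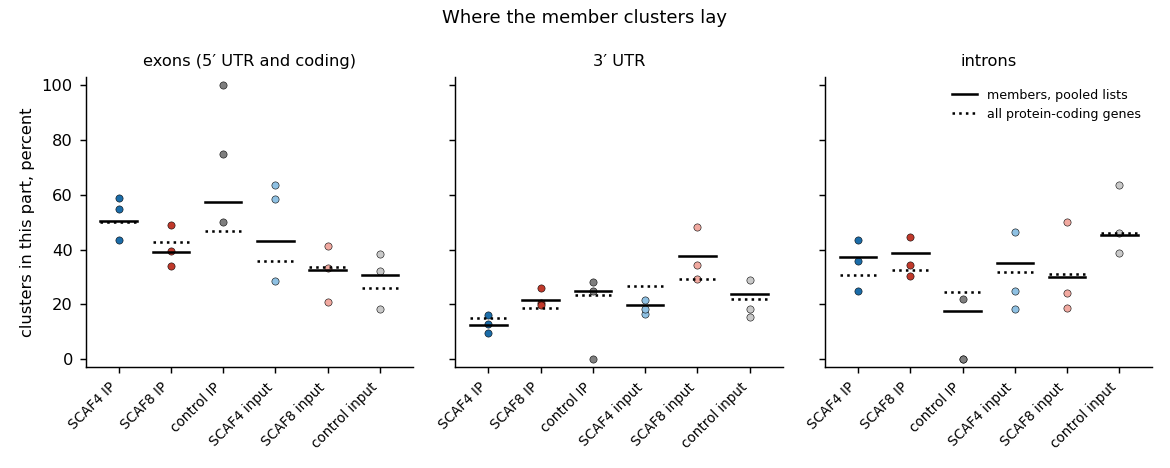
Percent of the clusters of the 10 genes that lay in exons, 3′ UTRs and introns, 1 point per list, with the pooled share of each group as a solid line and that of all protein-coding genes as a dotted line. The exon share was 50.4% in SCAF4 IP and 34.9% in all inputs, and single input lists spread from 18.2% to 63.6%.

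The parts of the genes were tested in the same way over 12623 gene parts, of which 24.0% were higher in the SCAF4 and SCAF8 IPs than in their inputs. By kind, 35.7% of exon parts, 12.1% of 3′ UTR parts and 15.8% of intron parts were higher. Of 24 parts of the members that had a cluster in at least 3 lists, 13 passed that filter only through the SCAF IPs. In all 5 were higher and 0 lower, a count that the filter favours. They were the exons of DICER1 (log2 difference 1.30 ± 0.43, adjusted p = 0.0326), the exons of AGO2 (0.72 ± 0.20, adjusted p = 0.0125), the exons and introns of AGO3 (0.73 ± 0.23, adjusted p = 0.0268, and 0.47 ± 0.11, adjusted p = 0.00506) and the exons of TNRC6B (0.43 ± 0.10, adjusted p = 0.00538). All of these but the exons of DICER1 passed the filter only through the SCAF IPs, which favours a positive difference. The introns of AGO3 and the exons of TNRC6B had clusters in no other list, and the exons of AGO2 and of AGO3 in 1 other list, an input and a control IP. The DICER1 call passed in 14 of 27 settings (adjusted p 0.000345 to 0.277) and that of AGO2 exons in 26 of 27 (0.000236 to 0.15). These counts do not rank the calls, because AGO2 exons entered the test only through the lists in which they were higher. Without replicate 3 of all groups none of the 5 parts passed, and without replicate 2 only AGO2 exons did. The call of AGO3 exons was also lost without SCAF4 IP replicate 2 or 3 or SCAF8 IP replicate 3, and that of DICER1 exons without the same single lists as the whole gene. With the replicate block the 3′ UTRs of AGO1 (0.41, adjusted p = 0.0415) and TNRC6A (0.23, adjusted p = 0.0446) and the exons of TNRC6C (0.28, adjusted p = 0.0454) also passed, and the highest adjusted p over their settings was 0.315, 0.379 and 0.315. Each of these had clusters in 3 lists, all of them SCAF IPs, so it entered the test only through the lists in which it was higher. Without replicate 1 the introns of DROSHA, DICER1, AGO2 and TNRC6B, the exons of TNRC6A and the 3′ UTR of DROSHA passed as higher, and the exons and the 3′ UTR of DGCR8 as lower. Among these, the introns of DICER1 and AGO2 and the 3′ UTR of DROSHA had passed the filter only through the SCAF IPs.

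The clusters of AGO2 were spread over more of the gene in IP than in input. The IP lists are longer, and over all protein-coding genes too the 3′ UTR share was lower and the exon share higher in the IPs. In the SCAF IPs 57 of 86 lay in the 3′ UTR and 17 in exons, and in the 9 inputs 35 of 37 lay in the 3′ UTR and 1 in an exon. All 6 control IP clusters were in the 3′ UTR. The pooled ratio of IP to input was 4.43 for exons (0.694 to 185, from 17 clusters against 1) and 0.512 for the 3′ UTR (0.322 to 0.831, from 57 against 29 in the inputs of the FLAG lines). Of these 3′ UTR clusters, SCAF8 had 37 in IP and 24 in input, and SCAF4 had 20 in IP and 5 in input. In limma the 3′ UTR of AGO2 differed by −0.50 ± 0.38 (adjusted p = 0.353). DICER1 exons held 48 IP clusters against 3 in the inputs (ratio 4.17, 1.34 to 20.9). All 4 DICER1 clusters of control IP were exonic too. The mean of log2(clusters per 10000 + 1) for DICER1 exons was 1.63 in control IP, 2.19 in SCAF4 IP and 1.24 in SCAF8 IP. Gene parts were not tested against control IP.

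Over the 18 lists the clusters of the 10 genes formed 198 merged regions. Of these, 124 were found in SCAF4 or SCAF8 IPs and in no input or control IP, 64 in both kinds of list and 10 only in an input or control IP. The SCAF IP lists held 18287 to 54404 clusters and the inputs 4567 to 12493, so regions of IP lists alone are favoured at any gene. Their share over all genes is not given here. Clusters of both proteins were found in 92 regions, of SCAF4 but not SCAF8 in 44 and of SCAF8 but not SCAF4 in 52. Regions of both proteins were 38 of 69 in exons, 38 of 94 in introns and 15 of 32 in 3′ UTRs. Over all protein-coding genes, 50.4% of 28199 exonic regions with a cluster of either protein had both. A cluster in only 1 list gave many of the rest, since 116 regions had at least 2 IP lists and 18 all 6.

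With a rule built on the study's removal of background, regions were kept if at least 2 of 3 replicates had a cluster (2 of 6 IPs for the pooled set), if clusters of at most 1 of 9 inputs and of no control IP overlapped them, and if the gene held fewer than 1 merged input region per 10 kb. How the input clusters of a gene were counted is not given in the sources used here. Here the merged regions of all 9 inputs in the gene and its flanks of 2000 nt were counted. This left 32 SCAF4 sites of 77, 18 SCAF8 sites of 72 and 50 pooled sites of 117. No site of DGCR8 or AGO2 remained. DGCR8 held 7.57 merged input regions per 10 kb and AGO2 1.26, so both genes were removed whole, while DICER1, at 0.792, was kept. AGO2 and DICER1 lie near the limit, and other ways of counting were not tried. Of the pooled sites, DICER1 held 14, DROSHA 11, TNRC6A 9, AGO1 and AGO3 5 each, TNRC6B 3, TNRC6C 2 and AGO4 1. Without the limit on input density the pooled set held 77 sites, 16 of DGCR8 and 11 of AGO2. The SCAF4 sites overlapped a SCAF8 site in 28.1% of cases (9 of 32) and the SCAF8 sites a SCAF4 site in 50% (9 of 18). Over all sites of the series these shares were 28.1% of 10445 and 54.5% of 5387.

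Of the 50 pooled sites 27 lay in coding exons, 17 in introns and 6 in 3′ UTRs, or 54%, 34% and 12%, against 60.0%, 24.8% and 11.5% of all pooled sites in protein-coding genes. The end of an exon was covered by 20 (40%, against 46.2% of all), and 16 (32%, against 24.3%) lay over the last exon of another annotated isoform of the gene. DICER1 had 7 of these 16 and TNRC6A 4. An isoform counted if its end lay more than 1000 nt from that of the isoform used. The 16 thus include sites in the last exon of the isoform used, in exon 30 of DICER1 and exon 25 of TNRC6A. The sites found in 5 of 6 IPs were DICER1 exon 6, DROSHA exons 10 and 20, TNRC6A exons 18 and 25 and TNRC6B intron 1, whose sequences are given above, and of these only the TNRC6B site had a cluster in an input, in 1 list. A further 9 sites were found in 4 lists. They included DICER1 exons 11, 26 and 30, DROSHA exons 6 and 22, and intron 3 of AGO3.

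In the 100 nt around the centre of the pooled sites, read on the transcript strand, CGG or CGA occurred in 62% of the member sites and in 71.4% of all 16510 pooled sites. The flanked CAG motif occurred in 32% and 45.2%, and CTCC or CACC in 42% and 49.4%. Regions found in at least 2 of 9 inputs held them in 56.7%, 35.8% and 41.5%. The median GC content was 45.5% in the member sites, 50% in all pooled sites and 45% in the input regions. In each of these 4 measures the 50 member sites were closer to the input regions than to all pooled sites, a difference that was not tested. A match of these letters is a description and not a bound site.

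Other genes of the pathway were taken from 2 lists. Of 19 genes of microRNA maturation and turnover 16 were tested, and in the SCAF4 and SCAF8 IPs against their inputs 4 were higher and 3 lower (median log2 difference 0.11, against 0.26 for all genes). Those higher were XPO5, which exports precursor hairpins (1.27 ± 0.42), ZSWIM8, a ubiquitin ligase receptor of target-directed microRNA decay (0.96 ± 0.22), TUT7, which adds uridines to precursors (0.77 ± 0.17), and DIS3L2, which degrades uridylated RNA (0.66 ± 0.15). Those lower were the DROSHA-associated helicases DDX5 (−1.54 ± 0.33) and DDX17 (−1.15 ± 0.25) and the transport GTPase RAN (−1.35 ± 0.34). Of 29 genes of the effector step 25 were tested, and 6 were higher and 0 lower (median 0.31). The 5 with the largest differences were PAN2, a deadenylase (1.60 ± 0.45), the decapping scaffold EDC4 (1.20 ± 0.30), the import receptor IPO8 (0.82 ± 0.26), the decapping factor DCP1A (0.65 ± 0.16) and the CCR4-NOT subunit CNOT9 (0.56 ± 0.17). All are log2 differences with their SE from limma. Calls of either direction made up 26.6% of all genes tested, against 7 of 16 and 6 of 25 here, and no test of the lists was made. Which of these genes passed the filter only through the SCAF IPs was not counted. Their calls were not followed over the other settings.

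Over the 18 lists the summed clusters of the 10 genes ran closely with those of PPP2R2D (Pearson r = 0.809), EIPR1 (0.800), ENSG00000284952 (0.791) and NHLRC2 (0.790), among 7676 genes and on the log2 scale of clusters per 10000. The points share the list lengths and the separation of IP from input. Between single members r ranged from −0.838 to 0.739 over 45 pairs, with a median of 0.379.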

How the data were processed

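PAR-CLIP clusters were taken as deposited, in 18 lists of position, strand and a score. The authors aligned 36 samples to GRCh38, merged soluble with chromatin reads and called clusters with PARalyzer, which set minimum numbers of reads and T-to-C conversions. The submitters' processing notes name bcl2fastq 1.8, cutadapt, Trim Galore, Bowtie2 2.2.9 and Picard. The score that the authors deposited has no stated meaning and served only as a rank within a list. The methods give another doxycycline dose than the labels, and name doxycycline for the parental line too.

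Cluster midpoints were assigned to GENCODE 44 genes and to exon, 3′ UTR or intron of the coding isoform with the most exonic nucleotides. The longest isoform of DGCR8 and of DICER1 has none, and using it was an alternative added after the data were seen. All groups entered 1 fit of limma 3.58.1 (R 4.3.3, trend, Benjamini-Hochberg over all genes or gene parts tested) on log2(clusters per 10000 + 1). The script was tested on simulated data. Ratios of pooled clusters have exact binomial 95% intervals, which cover counting error only. Sites and sequences were read with pysam 0.24.0. The members and gene lists were chosen with earlier results of these data known. All 10 members were described, of the 2 other lists the called genes (at most 5 per direction), the 5 genes most like the members (1 of them is not reported here), and the sites found in the most lists.

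The replicate numbers pair an IP with its input, since both came from 1 extract. The main fit had group means alone and left this pairing out. The replicate block used the number over all lines and not the single extract. Deviations of IP and input of the same number correlated at 0.0331 to 0.329 (median 0.118, n = 9), and of different numbers at −0.246 to 0.137 (median −0.105, n = 18).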

Additional observations from a re-analysis of the deposited data

How the results depend on the processing

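Of 1035 log2 differences of the members under other settings, 949 stayed on their side of the threshold, 26 lost a call, 56 gained one and 4 changed sign with a call. Of 634 values by gene part these were 570, 23, 40 and 1. Among those that stayed, 49 and 18 changed sign without being called under either setting. Without scaling to the length of the list, the median difference of all genes tested was 1.00 in place of 0.26, and DGCR8 (1.54 against inputs, 1.55 in SCAF4 alone, 2.26 against control IP), AGO2 (1.45) and the exons of DGCR8 (1.34) became higher in IP. Genes called in the IPs against their inputs numbered 2043, and 5649 without scaling, 988 with a cluster required in 6 lists, 818 with the upper-scored clusters and 238 to 3094 with samples left out. For SCAF4 alone 1175 became 4703, 498, 268 and 183 to 2805. For SCAF8 alone 232 became 1485, 103, 48 and 0 to 1077, 132 with a pseudocount of 2 and 90 with 1 list required. Against control IP 1706 became 5576 without scaling, 4 with the upper-scored clusters and 0 to 3660 with samples left out. For SCAF4 against SCAF8 IP 175 became 329, 0 (with 195 at an unadjusted p under 0.05 in limma), 90 and 33 to 627. For gene parts 3346 became 7939, 1288, 1207 and 0 to 5151. The counts of 0 came from limma without replicate 2 or 3 of all groups, with 1118 and 609 genes (SCAF8) and 2084 and 1706 genes (control IP) at an unadjusted p under 0.05, and 2962 parts without replicate 3. The highest counts came without replicate 1. The intron share of SCAF8 IP was 30.5% with the longest isoform of any kind. Leaving out a replicate gave control IP shares of 52.8% to 87.5% for exons and of 0% to 19.4% for introns. The 87.5% and the 0% came without replicate 1, which supplied most control IP clusters. With 3 lists required, the sites numbered 15 for SCAF4, 1 for SCAF8 and 26 pooled. Without the limit on input density SCAF8 had 37 and the pooled set 77. Upper-scored clusters gave 21 for SCAF4 and 7 for SCAF8. With a replicate left out the sites numbered 17 to 40, 5 to 12 and 31 to 51. The replicate block changed no call beyond those given in the report (AGO1, adjusted p = 0.0434, and the others there). Depth is unknown, and the few clusters of AGO1, AGO4, TNRC6B and TNRC6C limit what can be seen.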
